A study of Rattus norvegicus with 24 samples.

Results

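The genes that encode the proteins of the cytosolic ribosome were followed through 6 RNA-seq libraries of rat neural cells. They were chosen by name. A symbol of the deposited expression table was taken when it had the form Rpl, Rplp or Rps followed by a number, with an optional letter (a, x, l or y) and further digits, a form that leaves out the Rps6k kinases and the mitochondrial Mrpl and Mrps genes. This gave 79 of the 12187 genes listed, 47 of them for proteins of the large ribosomal subunit and 32 for the small one. Of 79 canonical mammalian ribosomal protein genes, 76 were found this way, and the other 3, Rpsa and Fau among them, have symbols of another form. The 3 further genes matched by the form are the paralogs Rpl22l1, Rps27l and Rps4y2.

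The study compared neural stem cells of Sprague-Dawley rats with differentiated cells grown without or with vitamin C. Its 3 RNA-seq groups hold 2 libraries each: stem cells (D0), differentiated cells without vitamin C (VC-) and differentiated cells with vitamin C (VC+). Replicate 1 of both differentiated groups is labelled day 4 and replicate 2 day 5. The dose of vitamin C, the medium and the age of the animals are not given in the sources used here, nor is the origin of the replicates (a new culture, a new animal or the same one). A p-value therefore reflects only the spread between these libraries, which may be technical. The libraries are bulk samples, in which fewer cells of a type and less RNA per cell cannot be told apart.

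A ribosome is built from ribosomal RNAs and a fixed set of proteins, most of them present as a single copy per particle, and the genes for these proteins are expressed at high and coordinated levels in dividing and growing cells. Their mRNAs typically begin with a C followed by a run of pyrimidines, the terminal oligopyrimidine (TOP) sequence, through which the kinase complex mTORC1 and the RNA-binding protein Larp1 control their translation and stability. Protein synthesis is known to be regulated as neural stem cells leave the stem cell state.

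The start of the gene is where this shared feature lies, so the start regions of Rplp0, the member of highest mean CPM, of the 3 members with the largest vitamin C differences (Rpl12, Rpl31 and Rps28) and of 2 paralog pairs are shown first. Each runs from 30 bases before to 20 bases after the start annotated by RefSeq (build GRCr8) on the gene's own strand. Capitals mark a C within 5 bases of that start together with the pyrimidines that follow it, at least 4 of them. The base before this C was not considered, so a marked stretch can be part of a pyrimidine run that begins farther upstream, as in Rpl22.
Rplp0 (chr12:46718371-46718420, minus strand): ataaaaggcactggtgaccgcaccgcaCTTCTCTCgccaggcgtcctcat
Rpl12 (chr3:36661910-36661959, plus strand): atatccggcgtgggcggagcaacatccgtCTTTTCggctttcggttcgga
Rpl31 (chr9:49143081-49143130, plus strand): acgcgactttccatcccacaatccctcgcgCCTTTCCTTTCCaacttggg
Rps28 (chr7:15311314-15311363, minus strand): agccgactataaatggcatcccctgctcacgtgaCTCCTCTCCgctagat
Rpl22 (chr5:168117931-168117980, plus strand): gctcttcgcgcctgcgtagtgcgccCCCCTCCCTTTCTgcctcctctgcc
Rpl22l1 (chr2:113683166-113683215, plus strand): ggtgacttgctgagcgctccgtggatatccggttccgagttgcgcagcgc
Rps27 (chr2:177964587-177964636, minus strand): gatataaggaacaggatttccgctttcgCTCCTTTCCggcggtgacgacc
Rps27l (chr8:76443628-76443677, plus strand): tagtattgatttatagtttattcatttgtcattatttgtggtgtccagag
The canonical genes Rplp0, Rpl12, Rpl31, Rps28, Rpl22 and Rps27 have such a run, and the windows of the paralogs Rpl22l1 and Rps27l do not hold these letters. This is not a split between canonical genes and paralogs. The paralog Rps4y2, whose window is not shown, has such a run, and by this rule canonical genes such as Rpl3, Rpl5 and Rps2 do not. The rule can miss a pyrimidine run that begins farther upstream. In Rps2 such a run reaches the annotated start, and in Rpl5 it ends shortly before it.

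RefSeq gave a start region for 64 of the 79 members. The run stood at the start of 41 of these 64 (64.1%), against 17.7% of the 8965 tested genes with a start region and 19.0% of all 27457 start regions. It was found in 13 of 52 mitochondrial ribosomal protein genes and in 7 of 36 ribosome assembly factors (19.4%), and in 6 of 13 other genes with TOP mRNAs (46.2%). In the wider window of 250 bases before to 50 after the start, searched on both strands, CCGGAAG stood in 20 of 64 members (31.2%). The share was 17.0% in tested genes and 9.63% in all start regions. CCGGAAG also stood in 18 of 36 assembly factors, 16 of 52 mitochondrial ribosomal protein genes (30.8%) and 3 of 13 other TOP genes (23.1%). AAGATGG stood in 10 of 64 members (15.6%, tested genes 8.31%, all regions 7.77%). Its share was higher in mitochondrial ribosomal protein genes (14 of 52, 26.9%) and other TOP genes (4 of 13, 30.8%), and lower in assembly factors (1 of 36, 2.78%). TATAAA stood in 8 of 64 (12.5%), above the tested genes (6.85%) and below all regions (15.3%), and CACGTG in 5 of 64 (7.81%), below the tested genes (9.21%) and above all regions (7.08%). CCGGAAG and AAGATGG can share their letters AAG, so a stretch can hold both. In percentage points the pyrimidine run stood farthest above its share in all start regions, and these matches are a description of letters, not of binding.

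Values are CPM, read counts that the authors divided by library size, and they are not per length, so levels are compared between libraries and not between genes. The table lists between 4811094 and 13184601 reads per library, and replicate 2 was the deeper library in each group. The listed reads were 60.2% to 67.7% of the total by which the authors scaled. The replicates also differed in the cells they held. All 15 microglia and macrophage markers were higher in replicate 2 than in replicate 1 of every group, with sums of 4.88 to 5.58 CPM in replicate 1 (4 to 10 of the 15 at 0) and of 376 to 902 CPM in replicate 2. All 10 fibroblast, pericyte and meningeal markers were likewise higher in replicate 2 (sums of 227 to 391 CPM in replicate 1 and 4384 to 10555 CPM in replicate 2). The sum of 9 stem cell markers was 4106 and 5545 CPM in stem cells, 4117 and 4670 CPM without vitamin C and 3275 and 5069 CPM with it, and that of 10 neuron markers 530 and 540, 629 and 473, and 502 and 466 CPM, in the same order. The stem cell marker sums overlapped between groups, and 1 of the 4 differentiated libraries had a higher neuron marker sum than the stem cells. These differences between replicates are present in every group, and each comparison below is therefore given within each replicate as well.

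Of the 79 members, 71 had at least 20 CPM in every library (22.1 to 1013 CPM, 231 to 12885 reads). The other 8 were at 0.0957 to 6.43 CPM with 1 to 74 reads per library. They were Rpl37a, Rps4y2, Rps19, Rplp2, Rpl7a, Rpl8, Rps6 and Rps9, of which all but Rps4y2 encode proteins of every ribosome. Rps6, the substrate of S6 kinase, had 25 to 58 reads per library, and Rps19, the gene most often mutated in Diamond-Blackfan anemia, had 5 to 14. In RefSeq, the number of other entries named as copies of a gene, mostly pseudogenes, had a median of 14 in both sets, so this count does not separate the 8 low members from the 71. How reads that match several copies were counted is not given in the sources used here, and the level of any member with copies is uncertain for that reason. Rpl37a and Rps19 did not reach the level required for testing (at least 1 CPM in at least 2 libraries), which leaves 77 members tested.

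Together the 79 genes took a smaller share of the library with vitamin C than in any other library. Their summed CPM was 23300 and 19352 in stem cells, 21171 and 16666 in differentiated cells without vitamin C, and 15132 and 14692 with vitamin C (replicates 1 and 2). As a share of the total this was 2.33% and 1.94%, 2.12% and 1.67%, and 1.51% and 1.47%. The libraries with vitamin C were the lowest 2 of the 6, while stem cells and differentiated cells without vitamin C overlapped. The share was 2.38% in both libraries with vitamin C when only the reads of listed genes were counted, against 2.77% to 3.84% in the other 4. Large subunit genes summed to 1.43% and 1.17%, 1.31% and 1.01%, and 0.923% and 0.889%, and small subunit genes to 0.903% and 0.761%, 0.811% and 0.652%, and 0.590% and 0.580%, so both subunits showed this order.

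**Figure D1:**
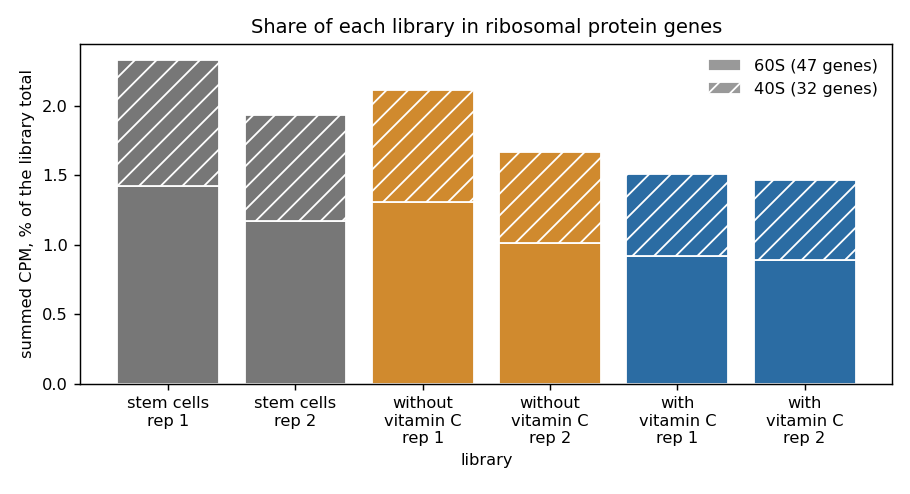
Summed CPM of the 47 large subunit (60S, plain) and 32 small subunit (40S, hatched) genes as a percentage of each library's total, for the 6 libraries in 3 groups. The bars with vitamin C, at 1.51% and 1.47%, are the lowest of the 6, and both replicate 2 bars of the other groups are below their replicate 1 bars.

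The comparison of cells with and without vitamin C asks what vitamin C adds during differentiation. The summed level with vitamin C was 0.788 of that without it, a log2 ratio of the group means of -0.34, which was -0.48 in replicate 1 and -0.18 in replicate 2. The smallest two-sided p that exact permutation of 2 and 2 libraries allows is 0.33, and no test was made of this ratio. Gene by gene, 71 of the 77 members tested were lower with vitamin C in both replicates, where 26.4% of all genes tested were, and none was higher in both, where 30% of all genes were. In 55 of the 77 both libraries with vitamin C lay below both without it (7.82% of all genes), and in none above both (8.15%). The median log2 difference over the members was -0.33 against 0.02 over all genes, and -0.47 and -0.18 within replicates 1 and 2. No member passed limma's test at a Benjamini-Hochberg adjusted p of 0.05 (0 of 11823 genes, or 0%, did). At an unadjusted p under 0.05 limma gave 0 members (62 of all 11823 genes). The quasi-likelihood test of edgeR on recovered reads called 0 members, with 0 at that level (66 of all genes). DESeq2 called 0 (0.0507% of all genes), with 5 at that level (137 of all genes). With the replicates paired, limma, edgeR and DESeq2 also called 0 members (0%, 0% and 0.271% of all genes). At that level they gave 1, 0 and 0 members (404, 435 and 364 of all genes).

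**Figure D2:**
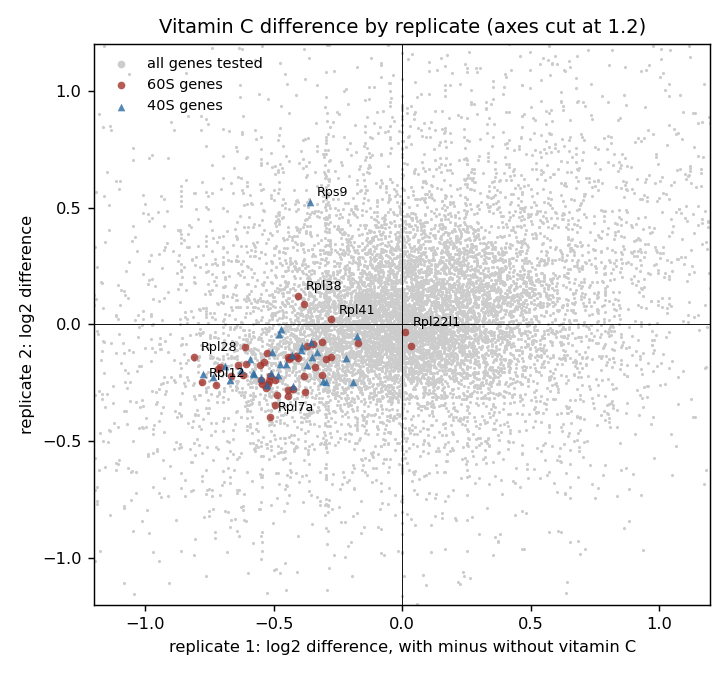
Log2 difference with minus without vitamin C in replicate 1 (horizontal axis) and replicate 2 (vertical axis), each point a gene: tested genes in gray (the axes are cut, so genes with larger differences are not drawn), large subunit genes as red circles and small subunit genes as blue triangles. The members sit to the lower left of the origin, 71 of 77 below 0 on both axes, with Rps9, Rpl38, Rpl41 and Rpl22l1 among the exceptions.

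The members differed within a narrow band. Over the 71 members of at least 20 CPM the standard deviation of the difference was 0.16 in replicate 1 and 0.08 in replicate 2, against 0.55 and 0.44 over all genes, many of which have fewer reads. The order of the members was shared only in part between replicates: Pearson's r between the differences in replicates 1 and 2 was 0.37 over these 71 genes and 0.29 over all 11823. Genes of a library share its depth and cells and are not independent. The medians were -0.35 for 43 large subunit genes and -0.32 for 28 small subunit genes. In 54 of the 71, both libraries with vitamin C were lower than all 4 others (3.31% of all genes tested had this order), 32 of 43 in the large and 22 of 28 in the small subunit. The 17 without this order were Rpl3, Rpl5, Rpl10a, Rpl15, Rpl22, Rpl22l1, Rpl27a, Rpl30, Rpl38, Rpl39, Rpl41, Rps2, Rps3a, Rps14, Rps15a, Rps20 and Rps26. They are named here because of their values.

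**Figure D3:**
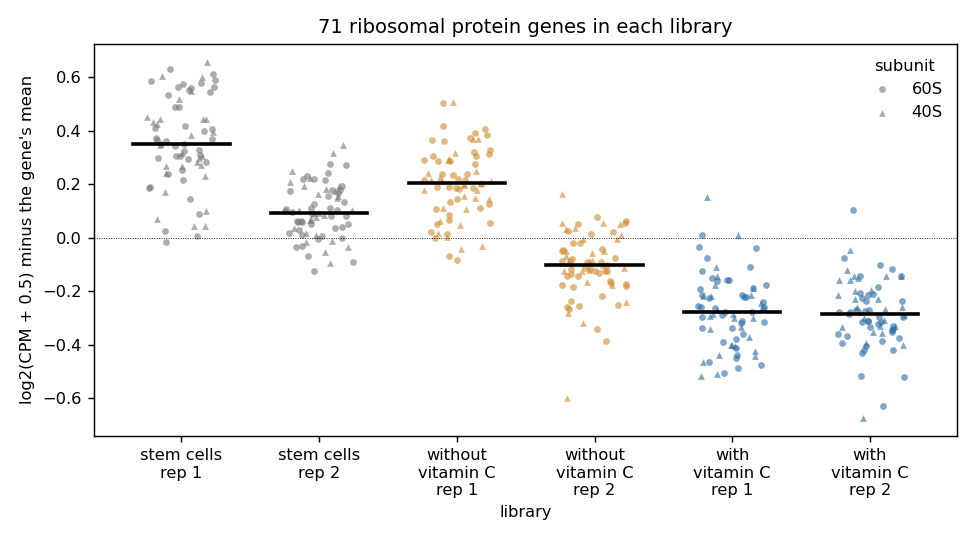
Log2(CPM + 0.5) of each of the 71 members of at least 20 CPM, minus the gene's own mean over the 6 libraries, by library. Circles are large subunit (60S) and triangles small subunit (40S) genes, and bars are medians. The medians of the libraries with vitamin C are the lowest 2, and replicate 1 is above replicate 2 in the other 2 groups.

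Replicates of the same group also differed in these genes. Among the 71 members, 60 were lower in replicate 2 than in replicate 1 in stem cells (median -0.24 on the log2 scale) and 67 without vitamin C (median -0.30), but 34 with vitamin C (median 0.01). The replicate difference in the first 2 groups was thus close in size to the vitamin C difference, and the smaller vitamin C difference in replicate 2 goes with a lower level without vitamin C in that replicate.

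The large subunit carries a stalk that recruits translation factors. Rplp0, the base of the stalk, was at 926 and 766 CPM in stem cells, 1007 and 692 CPM without vitamin C and 656 and 597 CPM with it, a difference of -0.42 (SE 0.36). Both libraries with vitamin C were lower than the 4 others. Rpl12, which sits beside the stalk base, was at 296 and 267 CPM, 284 and 216 CPM, and 165 and 182 CPM in the same order. Its log2 difference of -0.51 (SE 0.25; limma unadjusted p = 0.091, adjusted p = 1.00) was the largest of all members tested, and its groups with and without vitamin C did not overlap. Rplp1, which forms the arms of the stalk together with Rplp2, had a difference of -0.33 (SE 0.27), and Rplp2, with 12 to 23 reads per library, one of -0.03 (SE 0.60).

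Rpl3, which lies near the catalytic center, was at 885 and 686 CPM in stem cells, 755 and 450 CPM without vitamin C and 527 and 380 CPM with it. Replicate 2 was lower than replicate 1 in each group, and replicate 1 with vitamin C stayed above replicate 2 without it, so the groups overlapped. Rpl31, which lies at the mouth of the exit tunnel for the nascent chain, was at 313 and 333 CPM, 408 and 325 CPM, and 247 and 271 CPM, a vitamin C difference of -0.49 (SE 0.25) with no overlap. It was also among the members highest without vitamin C relative to stem cells. Rpl5, which binds the 5S ribosomal RNA and, when free, the p53 regulator Mdm2, was at 626 and 395 CPM, 495 and 361 CPM, and 399 and 311 CPM, with overlapping groups. Its partner in that complex, Rpl11, had a difference of -0.35 (SE 0.22). Rpl13a, known also for a role in silencing of inflammatory mRNAs, was at 574 and 491 CPM, 561 and 432 CPM, and 398 and 366 CPM, and both libraries with vitamin C were below the 4 others.

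Members of the small subunit had similar values. Rps2, at the entry of the mRNA channel, was at 1013 and 674 CPM in stem cells, 950 and 441 CPM without vitamin C and 743 and 419 CPM with it. Its replicates differed more than its groups, and its difference of -0.21 (SE 0.55) turned to 0.34 without replicate 1 of the cells without vitamin C and to 0.20 without replicate 2 of those with it. Rps16, which contacts the tRNA in the peptidyl site, was at 554 and 683 CPM, 538 and 601 CPM, and 377 and 520 CPM. In this gene replicate 2 was the higher one in every group, and both libraries with vitamin C were still below the 4 others. Rps28, at the exit of the mRNA channel, was at 144 and 135 CPM, 153 and 109 CPM, and 89.2 and 94.1 CPM, a difference of -0.49 (SE 0.24) with no overlap. Rps9 had the highest difference of all members tested, 0.08 (SE 0.60), from 6.43 and 4.73 CPM, 6.28 and 2.26 CPM, and 4.78 and 3.46 CPM. It was lower with vitamin C in replicate 1 and higher in replicate 2, and its sign changed with the count-based tests (-0.05 by edgeR and -0.04 by DESeq2).

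Relative to the family's median in each replicate, the members that stood above it in both were few and their offsets small. Rpl22l1 stood 0.49 and 0.15 above that median in replicates 1 and 2, Rps25, a protein needed by some internal ribosome entry sites, 0.30 and 0.13, Rpl30 0.31 and 0.10, Rpl41, the smallest ribosomal protein, 0.20 and 0.20, and Rpl38, known for a role in translation of Hox mRNAs, 0.08 and 0.30. Rpl12 stood below it in both, at -0.30 and -0.07. Rpl30 and Rpl38 were chosen after their values were seen.

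The 3 paralogs of the family behaved in different ways. Rpl22 was at 112 and 74.6 CPM in stem cells, 85.2 and 62.6 CPM without vitamin C and 69.4 and 56.4 CPM with it, and its paralog Rpl22l1 at 78.1 and 54.4, 53.7 and 44.6, and 54.2 and 43.7 CPM. The ratio of reads of Rpl22l1 to Rpl22 was 0.697 and 0.729 in stem cells, 0.630 and 0.713 without vitamin C and 0.781 and 0.774 with it. It was highest in both libraries with vitamin C, although the log2 difference of Rpl22l1 itself was -0.01 (SE 0.28) and changed sign in 2 of the settings that leave out a library. Rps27 was at 148 and 133, 141 and 130, and 94.4 and 112 CPM, and Rps27l, whose human counterpart is a p53 target, at 38.5 and 32.7, 28.7 and 29.98, and 22.1 and 26.5 CPM. Their ratio was 0.260 and 0.247, 0.203 and 0.231, and 0.234 and 0.237, highest in stem cells and lowest without vitamin C. Rps4x was at 517 and 350, 370 and 340, and 298 and 287 CPM, and both libraries with vitamin C were below the 4 others. Rps4y2 was at 0.504 and 1.31, 0.233 and 2.20, and 0.0957 and 1.78 CPM (1 to 41 reads), and in every group it was higher in replicate 2, so it followed the replicate and not the group.

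**Figure D4:**
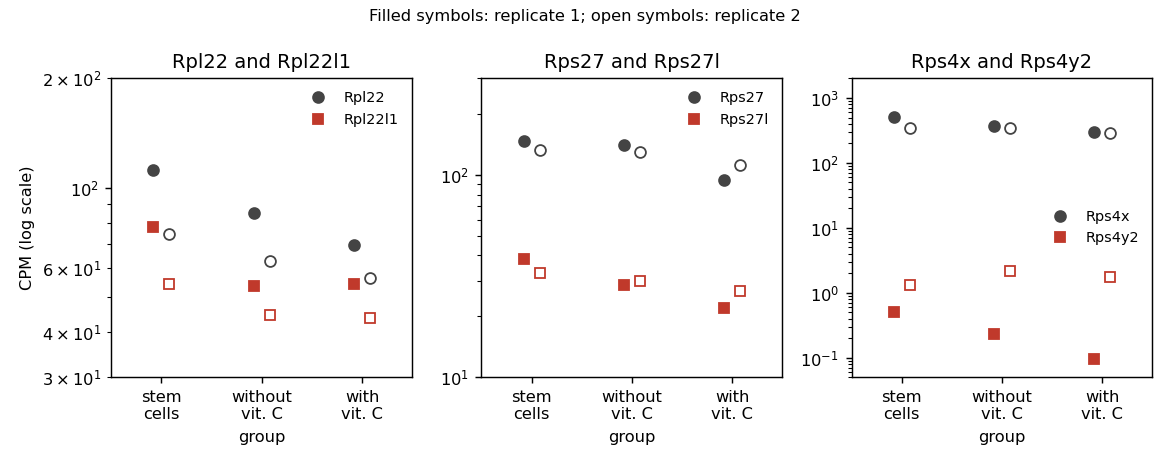
CPM on log axes of Rpl22 and Rpl22l1, Rps27 and Rps27l, and Rps4x and Rps4y2 in stem cells and in differentiated cells without and with vitamin C (filled symbols replicate 1, open symbols replicate 2). Within each replicate Rpl22 is lower when vitamin C was present while Rpl22l1 has nearly the same level, and Rps4y2, at 0.0957 to 2.20 CPM, separates the replicates.

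Ribosomal proteins whose symbols have another form had a median vitamin C difference of similar size, but not every gene of them did. Rpsa, a small subunit protein also known as the laminin receptor, was at 664 and 538 CPM in stem cells, 679 and 458 CPM without vitamin C and 460 and 384 CPM with it, so that replicate 1 with vitamin C was level with replicate 2 without it. Rack1, listed as Gnb2l1 and a scaffold for kinases on the small subunit, was at 388 and 342, 362 and 275, and 239 and 219 CPM, the 2 with vitamin C below all others. Fau, which is made as a fusion with a ubiquitin-like protein, was at 202 and 221, 249 and 231, and 159 and 191 CPM. It was lower in each library with vitamin C than in the 4 others. Rpl36al, a retained copy of Rpl36a, was at 55.5 and 49.3, 58.9 and 52.6, and 48.8 and 58.3 CPM, with overlapping groups. The median vitamin C difference of the 5 genes of this list was -0.43, and 4 of the 5 were lower in both replicates (26.4% of all genes). That of Rpl36al was -0.06. Without vitamin C against stem cells the list differed from the members. Its median was 0.09 (0.09 and -0.09 in replicates 1 and 2), where that of the members was -0.18. In that comparison 1 of the 5 was lower in both replicates and 2 were higher.

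Other genes of protein synthesis were split. Among 17 further genes with TOP mRNAs (elongation factors, chaperones and RNA-binding proteins), the median vitamin C difference was -0.27 (-0.41 and -0.17 by replicate), 15 were lower in both replicates (26.4% of all genes) and none was higher (30%). Eef1a1, the elongation factor that brings tRNAs to the ribosome, was at 3729 and 2550 CPM in stem cells, 3664 and 2050 CPM without vitamin C and 2555 and 2013 CPM with it, and Eef2, which moves the ribosome along the mRNA, at 1929 and 1767, 2035 and 1261, and 1353 and 1074 CPM. Both libraries with vitamin C were the lowest in 6 of these 17 (3.31% of all genes). Translation initiation factors, which are not on that list, had medians of -0.16 and -0.01 in replicates 1 and 2, with 10 of 23 lower and 6 higher in both; Eif4a1, the helicase, had 558 and 252 CPM in its absence and 552 and 255 CPM in its presence.

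Genes that make the ribosome, or control its making, were given the same counts, to be read against 26.4% of all genes lower in both replicates and 30% higher. With vitamin C, 3 of 34 ribosome assembly factors were lower in both replicates and 13 were higher (medians -0.00 and 0.12), and the nucleolar protein Ncl had 478 and 351 CPM in its absence and 488 and 358 CPM in its presence. Of 14 genes for RNA polymerase I, which transcribes ribosomal RNA, and its factors 1 was lower and 6 were higher (medians 0.06 and 0.16), with Ubtf at 168 and 158 against 158 and 180 CPM. Of 67 mitochondrial ribosomal proteins 16 were lower and 17 higher (medians -0.13 and 0.08), with Mrpl3 at 64.4 and 38.0 against 58.6 and 43.8 CPM. Of 22 genes of mTORC1 and TOP mRNA control 13 were lower and 5 higher (medians -0.11 and -0.08), with Akt1 at 173 and 167 against 161 and 143 CPM. For 10 genes of the Myc network the counts were 6 and 2 (medians -0.17 and -0.04), with Mxi1 at 54.8 and 99.6 against 52.4 and 66.6 CPM, and for 14 of the Atf4 stress response 3 and 4 (medians 0.02 and 0.01), with Phgdh at 547 and 173 against 498 and 182 CPM. No gene of these lists passed limma's adjusted test (0% of all genes did), and the difference between the lists and the members was not tested.

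**Figure D5:**
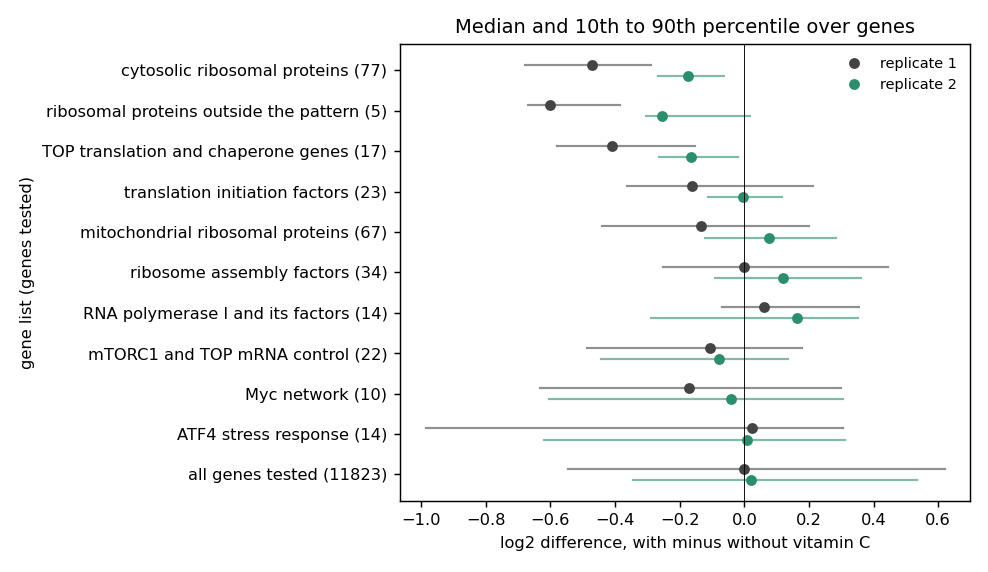
Median (points) and 10th to 90th percentile (lines) over genes of the log2 difference with minus without vitamin C, by gene list, with replicate 1 in dark gray and replicate 2 in green and the number of genes tested in brackets. Cytosolic ribosomal proteins (-0.47 and -0.18), those outside the naming form and other TOP genes lie to the left, and assembly factors, RNA polymerase I and all genes lie around 0. The lines show the spread over genes, not error.

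The members were also described by the pyrimidine run. Over the 38 members of at least 20 CPM with the run at the annotated start, the median vitamin C difference was -0.34. Rpl12 and Rpl31 are among them. It was also -0.34 over the 19 without the run by the rule above, such as Rpl3 and Rps2. Some of the 19, Rps2 and Rpl13a among them, have a pyrimidine run from farther upstream that reaches or nears the start. The sets therefore do not cleanly separate genes with and without a pyrimidine run near the start. Within replicates 1 and 2 the medians were -0.52 and -0.17 with the run and -0.42 and -0.22 without it. All 38 and 16 of the 19 were lower with vitamin C in both replicates (26.4% of all genes tested). In 31 of 38 and 12 of 19 both libraries with vitamin C lay below both without it (7.82% of all genes tested). The difference between these sets was not tested.

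Markers of other cells also differed in this comparison. Their counts are to be read against 26.4% of all genes lower in both replicates and 30% higher. The sum of 10 astrocyte markers, none at 0, was 3033 and 8910 CPM without vitamin C and 9836 and 15472 CPM with it (1875 and 5147 CPM in stem cells), and 9 of the 10 were higher with vitamin C in both replicates. Of 11 oligodendrocyte lineage markers 7 were lower and 4 higher in both, with sums of 12622 and 1127 against 8922 and 853 CPM (2311 and 802 CPM in stem cells). Of 12 genes of cycling cells 2 were lower and 5 higher in both, with sums of 571 and 417 against 573 and 539 CPM. Of 10 fibroblast, pericyte and meningeal markers 6 were lower and none higher in both (391 and 6638 against 304 and 4384 CPM), and of 15 microglia and macrophage markers 7 were lower and 1 higher (5.58 and 902 against 4.88 and 718 CPM). Of 10 neuron markers 6 were lower and 1 higher, and of 9 stem cell markers 5 were lower and none higher. The part of these cells in the lower ribosomal protein values was not tested.

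The comparison of differentiated cells without vitamin C and stem cells, which shares libraries with the one above, asks what differs on differentiation alone. The members had a median log2 difference of -0.18 (all genes 0.01), without vitamin C minus stem cells, and of -0.11 and -0.19 in replicates 1 and 2. Of 77 members 58 were lower in both replicates (29.5% of all genes) and none was higher, and in 20 the groups did not overlap (13.2%). No member passed limma's adjusted test (0% of all genes) or had an unadjusted p under 0.05 (382 of 11823 genes did). On recovered reads edgeR (0%), DESeq2 (0.558%) and DESeq2 with a replicate block (3.87%) called no member. The median rested on single libraries: it was -0.04 without replicate 1 of the stem cells and 0.00 without replicate 2 of the cells without vitamin C.

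The lowest of these differences belonged to the small subunit genes Rps9, Rps6 and Rps25, followed by the large subunit gene Rpl3 (-0.42). Over members of at least 20 CPM the medians of the subunits were close, at -0.19 for large and -0.17 for small subunit genes. Rps25 had 249 and 156 CPM in stem cells against 153 and 140 CPM without vitamin C (-0.42, SE 0.29), with replicate 1 of the stem cells standing above all 5 other libraries (135 and 136 CPM with vitamin C). Rps6 (4.67 and 3.81 CPM against 3.14 and 2.69 CPM, -0.47, SE 0.46) and Rps9 (-0.48, SE 0.60) rest on 25 to 74 reads per library. Among the highest were Rpl28 (190 and 205 against 249 and 201 CPM, 0.18, SE 0.25) and Rpl31 (0.17, SE 0.25), large subunit genes in which only replicate 1 was above both stem cell libraries. In this comparison 10 of 12 genes of cycling cells were lower in both replicates (median -1.25), and their sums were 1188 and 859 CPM in stem cells against 571 and 417 CPM. Their part in the members' values was not tested.

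Differentiated cells with vitamin C were set against the same stem cell libraries. The median of the members was -0.51 (all genes 0.01), and -0.64 and -0.36 in replicates 1 and 2. Of 77 members 75 were lower in both replicates (29% of all genes), none was higher, and in 70 the groups did not overlap (13.2%). All 71 members of at least 20 CPM were lower in both replicates. In the same comparison 11 of 12 genes of cycling cells were lower in both replicates (median -1.15; 1188 and 859 against 573 and 539 CPM) and 8 of 10 astrocyte markers were higher (median 1.66; 1875 and 5147 against 9836 and 15472 CPM). Their part in the members' values was not tested. No member passed limma's adjusted test (0% of all genes), while 9 of the 77 had an unadjusted p under 0.05 (507 of all 11823 genes). On recovered reads edgeR and DESeq2 called 0 members (0% and 1.14% of all genes). At an unadjusted p under 0.05 they gave 5 and 36 members (505 and 962 of all 11823 genes). With a replicate block limma, edgeR and DESeq2 called 0, 0 and 1 members (0%, 0% and 6.55% of all genes). At an unadjusted p under 0.05 these gave 37, 28 and 33 members (1885, 1963 and 1737 of all genes). Stem cells share only a replicate number with the other groups, so this block is not a pairing by design.

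The largest differences from stem cells were in Rpl3, Rpl23 and Rps21. Rpl3 (885 and 686 against 527 and 380 CPM) had a difference of -0.80 (SE 0.40), and it was the single member called by any fit, with an adjusted p of 0.0251 by DESeq2 with a replicate block (6.55% of all genes called). Rpl23, which like Rpl5 and Rpl11 can bind Mdm2, had 355 and 275 CPM in stem cells against 174 and 193 CPM with vitamin C, and 251 and 233 CPM without it (-0.77, SE 0.24; limma unadjusted p = 0.024, adjusted p = 1.00). Rps21, a small subunit protein near the head and platform, was at 279 and 246, 258 and 183, and 154 and 157 CPM in stem cells, without and with vitamin C (-0.75, SE 0.26). In each of the 3 both libraries with vitamin C were below both stem cell libraries.

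At the other end Rplp2 (-0.02, SE 0.60) and Rps4y2 (-0.21, SE 1.08) have too few reads for a difference of the family's size to be seen. Rpl41 was at 409 and 373 CPM in stem cells, 391.6 and 329 CPM without vitamin C and 323 and 334 CPM with it (-0.25, SE 0.25), the smallest difference from stem cells among members of at least 20 CPM. Its libraries with vitamin C were below both stem cell libraries but overlapped those without vitamin C.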

How the data were processed

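RNA libraries of 6 samples (3 groups of 2) were prepared with a TruSeq kit, per the labels' protocols, and the other 18 samples of the series were not analysed here. The authors deposited CPM per gene. The rn5 build and the tools CASAVA 1.7, STAR 2.5.1, Bowtie2 2.1.0, edgeR 3.12.1, deepTools 2.4.2 and HOMER 4.9.1 are listed in the submitters' processing notes, with no roles. How reads were counted, the annotation and any filter on genes are not given in the sources used here. All value columns were mapped to a sample (0 unmapped). Dividing by the value of 1 read in each library gave whole numbers for 100% of values (relative tolerance 1e-06), and these recovered reads went into the count tests. A count of 0 allows up to 3 reads, counting error only.

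Tests used limma 3.58.1 (R 4.3.3, trend, two-sided) on log2(CPM + 0.5) of the 11823 genes that reached 1 CPM in 2 or more libraries. All 3 groups entered a single model with 3 residual degrees of freedom, and calls needed an adjusted p (Benjamini-Hochberg) below 0.05. Fold changes are on this scale, which understates those of low genes. A difference within a replicate is that between its 2 libraries. The alternatives were count tests on the recovered reads (DESeq2 1.42.0 and edgeR 4.0.16), other pseudocounts, filters and scalings, a replicate block, and each library left out. The fits were tested on simulated data. Cells with and without vitamin C share replicate number and day label and are taken as paired; deviations from their group means correlated at 0.914 across genes, and with the block no member was called there either.

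The members, lists, markers and naming rule were chosen with earlier results of these data known. The rule named the 6 members of highest mean CPM, the 3 highest and 3 lowest differences per comparison, the paralogs with their parent genes, the ribosomal proteins of other symbols, and up to 2 genes of highest mean CPM from each other list; 2 of the genes it named are not reported here. RefSeq start regions (GRCr8) were matched by symbol.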

Additional observations from a re-analysis of the deposited data

How the results depend on the processing

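With 2 libraries a group and 3 residual degrees of freedom, differences of the size seen here are hard to call, and low members such as Rplp2 and Rps4y2 are limited by their reads. The members' median vitamin C difference was negative under every alternative run, from -0.47 to -0.18 when a library was left out, and the summed ratio ranged from -0.51 to -0.16. The median with vitamin C against stem cells ranged from -0.63 to -0.37. That without vitamin C against stem cells ranged from -0.34 to 0.0026 (-0.041 and -0.32 without replicates 1 and 2 of the stem cells, -0.34 and 0.0026 without replicates 1 and 2 of the cells without vitamin C), and was -0.12 after quantile normalization. limma and edgeR called 0 genes in each comparison. DESeq2 called 6, 66 and 135 genes (vitamin C, and without and with it against stem cells), none a member. With a replicate block DESeq2 called 32, 457 and 774, with 1 member among the last, Rpl3 (-0.81), while limma and edgeR with the block called 0. Stem cells share only a replicate number with the other groups (deviations correlated at 0.730 and 0.688 across genes), so that block is not a pairing by design. When a library was left out, the vitamin C difference turned sign for Rpl22l1 (-0.16 to 0.14), Rpl36al (-0.19 to 0.066), Rplp2 (-0.34 to 0.28), Rps2 (-0.77 to 0.34) and Rps9 (-0.57 to 0.73, and -0.047 with edgeR and -0.036 with DESeq2). Against stem cells it turned sign without vitamin C for Rps9 (-1.13 to 0.17), and with it for Rplp2 (-0.33 to 0.29, edgeR 0.020) and Rps4y2 (-1.18 to 0.76, edgeR 0.081, DESeq2 0.056). The cause of these changes was not tested. The other 502 values of single genes and 150 summary values kept their direction and their side of the threshold.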

Other observations

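The naming form leaves out genes that carry a ribosomal protein's name but are not parts of the ribosome. The S6 kinase genes Rps6kb1 and Rps6kb2, which act on Rps6 downstream of mTORC1, did not differ in the same direction in both replicates. Rps6kb1 went from 39.4 and 26.3 CPM in the absence of vitamin C to 49.4 and 25.9 CPM in its presence, and Rps6kb2 from 41.6 and 34.6 to 52.6 and 31.6 CPM. Both were higher in replicate 1 and lower in replicate 2. Gas5, a noncoding host gene of small nucleolar RNAs whose transcript carries a TOP sequence, was at 99.0 and 91.4 CPM in stem cells, 79.2 and 70.4 CPM without vitamin C and 130 and 68.0 CPM with it, so its replicates differed in direction (0.72 and -0.05). Rps19bp1, a protein that binds Rps19, went from 26.4 and 15.5 to 22.1 and 17.7 CPM.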
